A study of Mus musculus with 6 samples.

Results

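Lipid uptake in the heart was followed through 9 genes: Cd36, Lpl, Gpihbp1, Vldlr, Fabp3, Fabp4, Fabp5, Slc27a1 and Slc27a4. They were selected by symbol, and each had 1 row among the 48709 genes of the table. RNA came from hearts of C57BL6/J mouse embryos, with 3 libraries per genotype. Control hearts were RBPMS flox/flox RBPMS2 flox/flox, and the double knockout hearts had those alleles together with Cre, which the labels give as XML Cre pos. Both groups therefore carried the floxed alleles of Rbpms and Rbpms2, genes for a pair of RNA-binding proteins, and only the knockouts carried Cre, so effects of Cre itself and of the lost genes cannot be told apart. The series text describes the knockout as specific to cardiomyocytes and the controls as littermates. The embryonic stage, the promoter that drives Cre and any pooling of embryos are not stated in the sources used here.

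Heart muscle takes up fatty acids from lipoproteins and from albumin in the blood. Lipoprotein lipase, made largely by muscle and fat cells, is carried to the capillary wall by GPIHBP1, where it frees fatty acids from triglyceride, and the VLDL receptor binds the lipoprotein particles. CD36 and the fatty acid transport proteins, encoded by the Slc27a genes, help the acids cross the membrane, and the small fatty acid-binding proteins, encoded by the Fabp genes, carry them through the cytoplasm.

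Library totals of the deposited values were 19770390 to 20215282, from an estimated 18760330 to 21992758 reads. Values are normalised read counts, so that a value of 3 stands for about 3 reads. Rbpms was at 3551 to 3956 in the control libraries and 670 to 721 in the knockout libraries. Rbpms2 was at 2444 to 2716 and 1257 to 1676. The libraries numbered 3 stood apart from the others in sex-linked genes: Xist was at 6 and 20 in them and at 19501 to 25229 elsewhere. Eif2s3y, a gene of the Y chromosome, was at 1207 and 1569 in them and at 0 to 4 elsewhere. This is the pattern of male hearts in the libraries numbered 3 of both genotypes and of female hearts in the others. Without both libraries numbered 3, the Rbpms call held (limma adjusted p = 0.00102) and that of Rbpms2 was lost (limma adjusted p = 0.142), with 2 libraries per genotype. The effect of leaving both out is given for Cd36, Lpl and the called markers beside their values. Of 26747 genes tested with limma, 4.86% passed an adjusted p under 0.05 in either direction, 2.31% higher and 2.55% lower in the knockout. The split of 618 higher and 681 lower genes became 1121 and 480 when libraries were rescaled by their upper quartile.

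All 9 genes reached the minimum mean of 1 in a genotype and were tested. The 2 that passed were Cd36 and Lpl, both higher in the knockout (2.31% of all tested genes rose), and none fell. Knockout libraries did not overlap control libraries in 3 of the 9, higher for Cd36 and Lpl and lower for Slc27a4, against 21.7% of all tested genes in either direction. The median log2 fold change of the 9 was 0.27, and that of all tested genes was 0.015. A positive log2 fold change means a higher level in the knockout, values were log2(value + 1), and the error beside it is the standard error from limma.

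**Figure D1:**
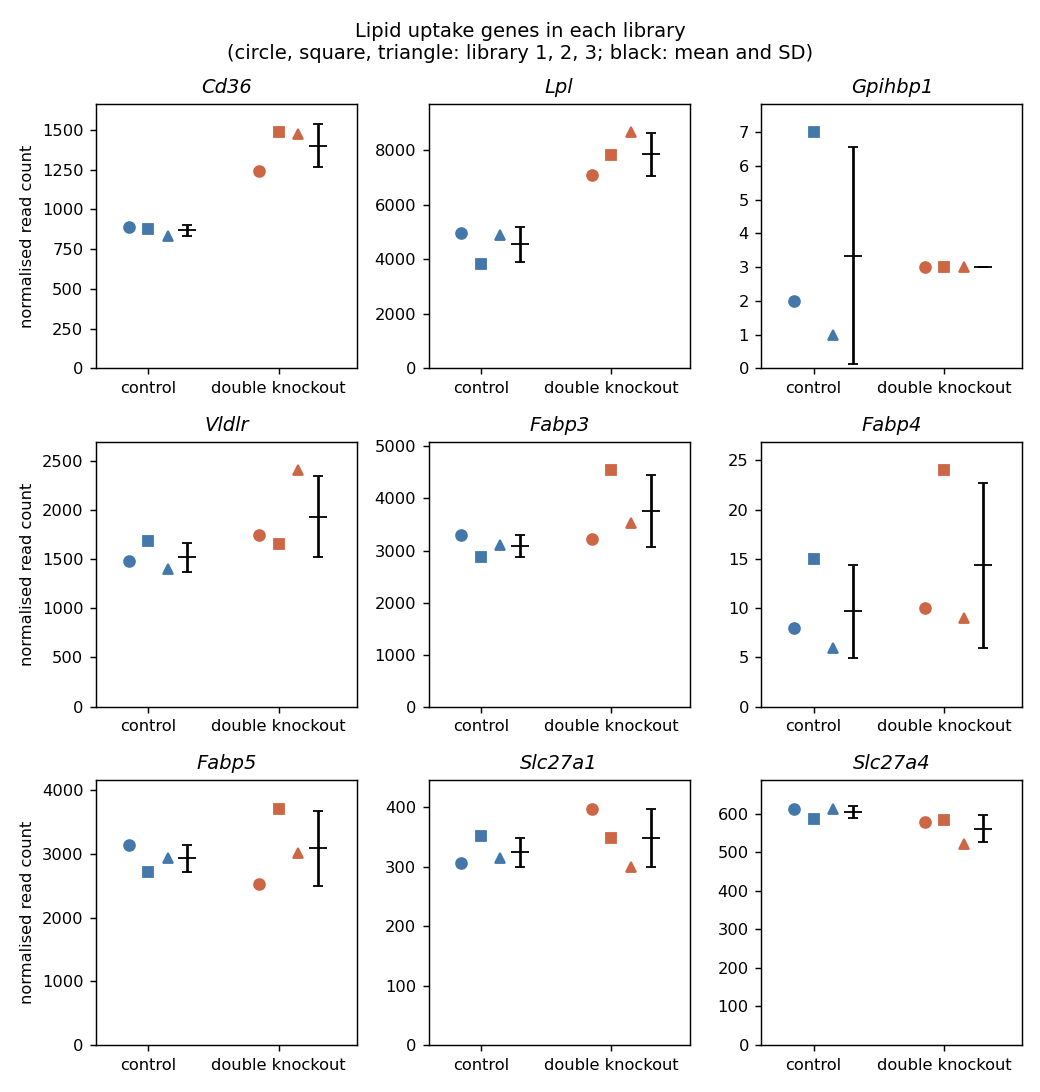
Normalised read counts of the 9 lipid uptake genes in each library, by genotype. Circles, squares and triangles are libraries 1, 2 and 3, and the black bars are the mean and SD of 3 libraries. For Cd36 and Lpl the lowest knockout library lies above the highest control library, and Gpihbp1 and Fabp4 lie at 24 or below throughout.

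Lpl encodes lipoprotein lipase (chromosome 8, 68880491 to 68907448, plus strand, mm10). It was at 4942, 3814 and 4881 in controls 1 to 3 and at 7085, 7801 and 8659 in knockouts 1 to 3. The lowest knockout library lay well above the highest control library. The mean rose from 4546 ± 634 to 7848 ± 788 (SD, n = 3), or 1.73-fold, which is 0.79 ± 0.10 in log2 (limma adjusted p = 0.000135, 95% interval 0.57 to 1.01). With each library left out in turn the difference stayed between 0.67 and 0.86 and past the threshold. Without both libraries numbered 3 it was 0.78 and the call was lost (limma adjusted p = 0.141).

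Cd36 encodes the fatty acid translocase, a scavenger receptor of the plasma membrane (chromosome 5, 17781690 to 17888801, minus strand, mm10). It was at 892, 878 and 831 in controls 1 to 3 and at 1244, 1486 and 1471 in knockouts 1 to 3. The control libraries lay close together, with an SD of 3.7% of the mean, and the knockout libraries spread more, at 9.7%. The mean rose from 867 ± 31.95 to 1400.3 ± 136 (SD, n = 3), or 1.62-fold, which is 0.69 ± 0.09 in log2 (limma adjusted p = 0.000113, 95% interval 0.50 to 0.88). Leaving out 1 library at a time gave 0.64 to 0.77, each past the threshold, and leaving out both libraries numbered 3 gave 0.62 with the call lost (limma adjusted p = 0.141).

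The pair of libraries numbered 3, taken alone, differed by 0.82 for Cd36 and 0.83 for Lpl, with no replicate check. Transcripts with different GC content were also represented unequally across libraries. Over 11905 genes, the rank correlation of GC content with the deviation of a gene in a library was 0.22 to 0.40 in controls and -0.59 to 0.13 in knockouts. Cd36 transcripts have a GC content of 38.4% and Lpl transcripts one of 43.5%. After removal of the GC and length trend, Cd36 differed by 0.54 (limma adjusted p = 0.000236) and Lpl by 0.71 (limma adjusted p = 0.00866).

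Cd36 was the called gene with a start site among the RefSeq promoters of GRCm38.p6, which held 5 of the 9 genes. The 250 bases before that start, chr5:17835897-17836146 on the minus strand, are shown because this gene rose. This is 1 of several starts, since the annotated gene reaches to 17888801. Capitals mark every match, on either strand, to AGGTCA (the core site of many nuclear receptors), GGGCGG (a GC box) or CCAAT.

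Cd36: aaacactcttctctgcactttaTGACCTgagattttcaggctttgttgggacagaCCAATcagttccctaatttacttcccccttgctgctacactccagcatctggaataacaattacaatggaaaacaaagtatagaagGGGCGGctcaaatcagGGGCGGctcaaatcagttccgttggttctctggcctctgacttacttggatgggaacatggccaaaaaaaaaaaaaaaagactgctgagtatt

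The core site lay 228 to 223 bases before the start, the CCAAT box 195 to 191 bases before it, and GC boxes 109 to 104 and 93 to 88 bases before it. The repeat unit AGGTCA occurs in 4607 of the 32851 RefSeq promoter windows of that length (14.0%), the GC box in 32.7% and the CCAAT box in 33.8%. The direct repeat AGGTCANAGGTCA, the arrangement bound by PPAR with RXR, was in 0.0335% of all windows. It was in 0 of the 8 windows of the 5 genes, which decides nothing for so rare a motif. Those windows belonged to Cd36, Fabp3, Slc27a1, Slc27a4 and Vldlr, and Lpl was not searched. TATAAA, the TATA box, had no match in the 8 windows, nor did the site of the GATA factors searched as AGATAA. The E-box CANNTG is not capitalised and had 1 match in the Cd36 window. These matches describe letters and not bound sites.

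Gpihbp1, the capillary anchor of the lipase (chromosome 15, 75596628 to 75599481, plus strand), was barely detected. It was at 2, 7 and 1 in the controls and at 3 in each knockout library. The groups overlapped, and the log2 fold change of 0.14 had a 95% interval of -1.003 to 1.28 (limma adjusted p = 0.917). The means went the other way, 3.33 in controls and 3 in knockouts, so the direction is not settled. Endothelial cells, in which the gene is known to act, were represented in the same libraries. The 10 endothelial markers, among them Pecam1 and Cdh5, summed to 24256 to 30681, and the lowest of them averaged 389 in controls. Endocardial markers, 6 genes, summed to 20693 to 23799 in controls and 21358 to 23290 in knockouts. The 6 capillary endothelial markers summed to only 834 to 878 and 513 to 1068. How much of the endothelium was capillary was not tested. The log2 ratio of Lpl to Gpihbp1 was 10.28 ± 1.23 in controls and 10.93 ± 0.14 in knockouts (SD, n = 3), a difference of 0.65 (exact permutation test, two-sided, p = 0.6, where 0.1 is the smallest possible). Without control 2, the library with 7 reads of Gpihbp1, the difference was -0.04 (exact permutation test, p = 0.9). It was 1.14 without control 3, the library with 1 read, and 0.80 with a pseudocount of 10 (exact permutation test, p = 0.1 for both). Few reads limit this ratio.

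Vldlr, the VLDL receptor (chromosome 19, 27216484 to 27254231, plus strand), was at 1485, 1683 and 1395 in the controls and at 1741, 1650 and 2403 in the knockouts. Knockout 3 was high and knockout 2 lay below control 2, so the groups overlapped. The means were 1521 ± 147 and 1931 ± 411 (SD, n = 3), with a log2 fold change of 0.33 and a 95% interval of 0.06 to 0.60 that did not pass after adjustment (limma adjusted p = 0.177). Without knockout 3 the difference was 0.16.

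Slc27a1 and Slc27a4 encode fatty acid transport proteins that also activate their cargo with coenzyme A. Slc27a1 (chromosome 8, 71568882 to 71587302, plus strand) was at 307, 351 and 314 in controls and 398, 348 and 300 in knockouts, with the highest and the lowest of all libraries both among the knockouts. Its log2 fold change was 0.10 (95% interval -0.15 to 0.34, limma adjusted p = 0.684). Slc27a4 (chromosome 2, 29802634 to 29817522, plus strand) was at 613, 587 and 613 in controls and 578, 583 and 521 in knockouts. Each knockout library lay below each control library, by as little as 4 between control 2 and knockout 2. The log2 fold change was -0.11 (95% interval -0.30 to 0.08, limma adjusted p = 0.561), and it was 0.00 once the GC and length trend was removed.

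**Figure D2:**
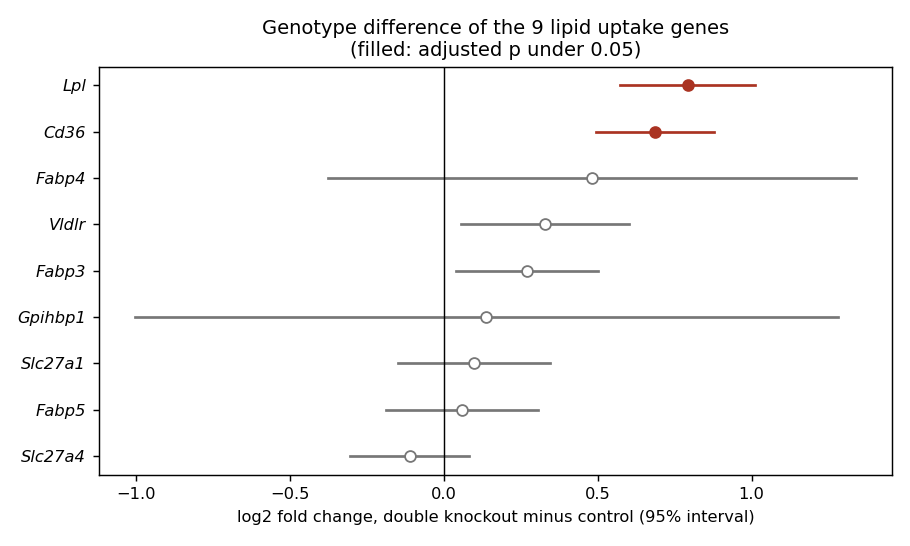
Log2 fold changes of the 9 genes, double knockout minus control, with 95% intervals from limma over 6 libraries. Filled points passed an adjusted p under 0.05: Lpl at 0.79 and Cd36 at 0.69. The intervals of Vldlr and Fabp3 leave out 0 before adjustment only, and those of Gpihbp1 and Fabp4 are the widest of the 9.

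The intracellular carriers did not pass. Fabp3, the heart-type carrier (chromosome 4, 130308595 to 130315463, plus strand), was at 3296, 2871 and 3113 in controls and 3226, 4542 and 3526 in knockouts. Knockout 2 was the high library and knockout 1 lay within the controls. The log2 fold change was 0.27 (95% interval 0.04 to 0.50, limma adjusted p = 0.186), and it was 0.39 after removal of the GC and length trend (limma adjusted p = 0.00812). Without knockout 2 it was 0.13 (limma adjusted p = 0.452).

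Fabp5, the epidermal-type carrier (chromosome 3, 10012548 to 10016607, plus strand), was at 3140, 2710 and 2941 in controls and 2532, 3711 and 3015 in knockouts. The same knockout library was high and knockout 1 was the lowest of the 6. The log2 fold change was 0.06 (95% interval -0.19 to 0.31, limma adjusted p = 0.818). Fabp4, the adipocyte-type carrier that capillary endothelium also makes (chromosome 3, 10204088 to 10208576, minus strand), lies 187.5 kb from Fabp5. Fabp4 was at 8, 15 and 6 in controls and 10, 24 and 9 in knockouts, a few reads per library with overlapping groups (log2 fold change 0.48, 95% interval -0.38 to 1.34, limma adjusted p = 0.563). The value was 0.07 without knockout 2, 0.82 without control 2, 0.22 without control 3 and 0.73 without knockout 3. The 6 adipocyte markers, Adipoq and Plin1 among them, summed to 3 to 8 per library.

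Values of Fabp3 and Fabp5 carry an uncertainty, because near-identical processed pseudogenes have rows of their own. No such copy was found for the coding sequences of the other 7. Over its 399 coding bases Fabp3 matched Fabp3-ps1 (chromosome 10, 86731987 to 86732388, minus strand) at 99.25%. The differences were A40T, C297T and G334A, with the base of Fabp3 first and positions counted from 1 at the first base of the start codon. The stretch from coding base 240 to 389 is shown from the GENCODE M21 transcripts, in capitals where the sequences differ, since it holds 2 of the 3 differences and reads were 75 bases long.

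Fabp3: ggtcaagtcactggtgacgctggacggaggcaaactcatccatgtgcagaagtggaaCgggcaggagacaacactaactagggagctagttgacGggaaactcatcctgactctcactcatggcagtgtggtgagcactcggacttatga
Fabp3-ps1: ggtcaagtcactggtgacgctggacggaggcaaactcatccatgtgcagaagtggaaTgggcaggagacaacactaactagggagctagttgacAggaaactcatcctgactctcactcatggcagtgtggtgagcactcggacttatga

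Of all 75-base windows in the Fabp3 coding sequence, 56.0% were found letter for letter in the pseudogene. Fabp3-ps1 had values of 2274, 1972 and 2190 in controls and 2285, 3193 and 2518 in knockouts. That was 68.7% to 71.4% of the Fabp3 value in every library, and knockout 2 was again the highest. For Fabp5, which has 5 such copies, 33.2% of windows were found in another gene. Its closest copy, Gm6166 on chromosome 9, was at 42.0% to 44.6% of the Fabp5 value, and Gm14328 at 10.1% to 11.5%. Copy and gene thus kept a narrow ratio across genotypes. The counting of reads that match more than 1 place is not stated in the sources used here. How these values divide between gene and pseudogene was not tested. The coding sequences of Cd36, Lpl, Gpihbp1, Vldlr, Fabp4, Slc27a1 and Slc27a4 had no such copy at 90% identity over 75 bases. Parts of the transcripts outside the coding sequence were not searched. Exons of Fabp3 also overlap exons on the other strand, of Zcchc17 (498 to 592 per library) and Gm10570 (0 to 6). Among the members themselves, Fabp3 and Fabp4 were 65.1% identical and Slc27a1 and Slc27a4 65.6%.

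**Figure D3:**
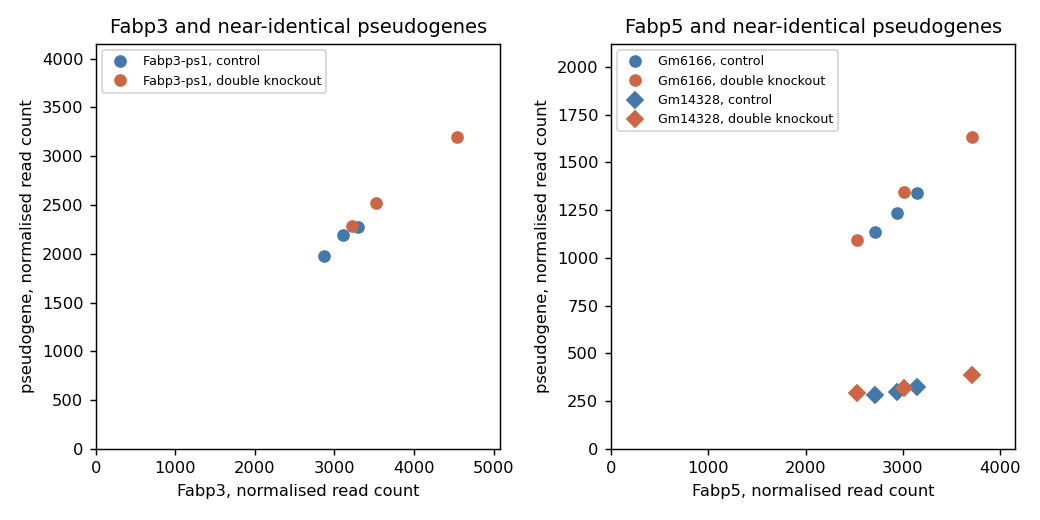
Normalised read counts of pseudogenes against those of Fabp3 (left) and Fabp5 (right), 1 point per library, blue for control and orange for double knockout. Points of each pseudogene lie near a straight line through the origin, at 68.7% to 71.4% of Fabp3 for Fabp3-ps1 and 42.0% to 44.6% of Fabp5 for Gm6166.

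Levels were compared between genes as reads per kilobase of the transcript with the longest coding sequence. In controls Fabp3 was highest at 3759 ± 259 per kilobase (SD, n = 3), followed by Fabp5 at 2969 ± 218, both with the uncertainty above. Per kilobase of merged exons the order was the same but the gaps were not: Fabp3 stayed at 3759, Fabp5 was at 822 and Lpl at 434. Lpl followed at 1105 ± 154. Cd36 was at 255 ± 9.40, Vldlr at 191 ± 18.5, Slc27a4 at 149 ± 3.70 and Slc27a1 at 116 ± 8.46. Fabp4 at 10.8 ± 5.27 and Gpihbp1 at 4.04 ± 3.90 came last and overlapped each other. The order was the same in knockouts, where Lpl reached 1907 ± 192 and Cd36 412 ± 39.9 per kilobase. In controls the only neighbours in that order with overlapping libraries were Fabp4 and Gpihbp1. In knockouts the only ones were Slc27a4 at 138 ± 8.50 and Slc27a1 at 125 ± 17.5. Fabp3 at 4574 ± 838 and Fabp5 at 3127 ± 600.5 did not overlap.

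The hearts hold several cell types that express these genes, and in whole tissue fewer cells of a type and less RNA per cell cannot be told apart. Endothelial markers summed to 24256 to 28362 in controls and 26010 to 30681 in knockouts. Of the 10, 1 rose (Emcn, from 1392 to 1822, 0.38, limma adjusted p = 0.0335), a call lost without control 1, 2 or 3 or knockout 2 or 3, and all 10 lay above 0. Without both libraries numbered 3 Emcn had an adjusted p of 0.542 by limma, and without the robust option one of 0.143. Macrophages also make Cd36 and Lpl. Their 8 markers summed to 1224 to 1302 in controls and 1283 to 1563 in knockouts, with a median of 0.49. Of these, 1 rose (Ptprc, from 13 to 32, 1.24, limma adjusted p = 0.00910), a call lost without control 3 or knockout 3 and without both (limma adjusted p = 0.275). No marker of either list was at 0. Lyz2 made up 51.5% to 71.7% of the macrophage sum and differed by 0.01, while 6 of the other 7 markers lay above 0. Erythroid markers, 6 genes of red blood cells, summed to 20983 to 60290 in controls and 44778 to 61311 in knockouts. None passed, all 6 lay above 0, and their median was 0.63.

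Cardiomyocyte markers summed to 474660 to 510508 in controls and 428424 to 503431 in knockouts. Of the 10, 1 rose (Pln, phospholamban, 0.75, limma adjusted p = 9.36e-05, or 0.0813 without both libraries numbered 3) and 8 lay below 0. Within each library Cd36 was set against these sums. Relative to endothelial markers its log2 ratio was -4.99 to -4.87 in controls and -4.39 to -4.19 in knockouts, without overlap, and the means differed by 0.62. Relative to cardiomyocyte markers the difference was 0.72, also without overlap. For Lpl these differences were 0.73 and 0.83, again without overlap. Relative to all 8 macrophage markers Cd36 differed by 0.50 and Lpl by 0.60 without overlap. With Lyz2 left out of that sum, a choice made after seeing the data, the differences were 0.21 and 0.31 and the genotypes overlapped. Relative to erythroid markers they were 0.19 and 0.29, with overlap. Relative to 8 fibroblast markers, which varied widely among libraries, Cd36 differed by 0.60 and Lpl by 0.70, and the genotypes overlapped. The parts of macrophages, red blood cells and fibroblasts in the rise of Cd36 and Lpl were not tested. The 6 capillary endothelial markers summed to 834 to 878 in controls and 513 to 1068 in knockouts, with 2 above 0 and 4 below. Aqp1 made up most of that sum in every library, at 598, 631 and 528 in controls and 476, 860 and 309 in knockouts. Relative to the capillary sum Cd36 differed by 0.93 and Lpl by 1.03, without overlap, so these differences depend largely on Aqp1. Of the 6 markers 1 fell (Car4, from 147 to 79, -0.91, limma adjusted p = 0.0256), a call lost without control 1 or 3 or knockout 2 or 3, and without both libraries numbered 3 (limma adjusted p = 0.514). The Car4 call was also lost with the GC and length trend removed (limma adjusted p = 0.0615) and without the robust option (limma adjusted p = 0.137).

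Other genes of lipid uptake and use were taken from 7 lists of 120 genes, chosen for their roles and with earlier results of these data known. The share called among them is a description and not a test of the lists. Of the 111 tested, 3 rose and 7 fell, or 9.01%, beside 4.86% of all tested genes, and the median was -0.036. The share moved with the processing: 3 genes passed without the robust option or without control 3, 4 without knockout 3, 5 without control 1, 19 with the GC and length trend removed and 0 without both libraries numbered 3. The balance of directions moved too: upper quartile rescaling gave 8 higher and 4 lower, and leaving out control 2 gave 5 higher and 3 lower. Without the robust option Mgll, Vegfb and Esrrg, described with their lists, were the 3 that passed.

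Among 12 tested regulators of the lipase none passed. The most abundant was Hspg2, perlecan, a heparan sulfate proteoglycan of basement membranes, at 24656 in controls and 21549 in knockouts (-0.21, limma adjusted p = 0.299). Angptl4, which inactivates the lipase and was singled out with its values known, averaged 74 in controls and 98 in knockouts (0.39, limma adjusted p = 0.218).

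Of 11 other carriers of fatty acids 1 fell. Got2, mitochondrial aspartate aminotransferase, also described as a plasma membrane fatty acid-binding protein, went from 6574 to 5150 (-0.35, limma adjusted p = 0.0170), a call lost without control 1, 2 or 3 or knockout 3 and with upper quartile rescaling (limma adjusted p = 0.0521). Among 15 genes of activation and mitochondrial entry 1 fell and none rose. This was Acaca, acetyl-CoA carboxylase, from 1964 to 1565 (-0.33, limma adjusted p = 0.0438), a call lost without control 1, 2 or 3 or knockout 2 or 3, with upper quartile rescaling (limma adjusted p = 0.111) and with a pseudocount of 10 (limma adjusted p = 0.0505). Cpt1a, the liver-type carnitine palmitoyltransferase, singled out with its values known, averaged 1011 in controls and 1251 in knockouts (0.31, limma adjusted p = 0.0567).

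Among 22 genes of lipid droplets 1 rose and 1 fell. Mgll, monoacylglycerol lipase, fell from 124 ± 7.21 to 64.7 ± 5.13 (-0.93, limma adjusted p = 0.00143), with each library left out too. Cidea, a lipid droplet protein of brown fat, rose from 12.3 to 29.7 (1.21, limma adjusted p = 0.0150), a call lost without control 1 or 3 or knockout 3.

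Among 22 regulators of lipid uptake 1 rose and 3 fell. Vegfb, a growth factor linked to fatty acid transport across endothelium, was at 1718 in controls and 1078 in knockouts (-0.68, limma adjusted p = 0.000265). Esrrg, an orphan nuclear receptor of energy metabolism, rose from 1403 to 1994 (0.50, limma adjusted p = 0.00246). Both calls held with each library left out. Klf15, a transcription factor of cardiac lipid metabolism, fell from 113 to 59.7 (-0.93, limma adjusted p = 0.00478), a call lost without control 3 or knockout 3. Ppargc1b, a coactivator of oxidative metabolism, fell from 369 to 233 (-0.70, limma adjusted p = 0.0194), a call lost without control 1, 2 or 3 or knockout 3. The PPAR genes themselves, singled out with their values known, did not pass: Ppara had 29.7 in controls and 29 in knockouts, Ppard 365 and 312, and Pparg 21.3 and 19.

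**Figure D4:**
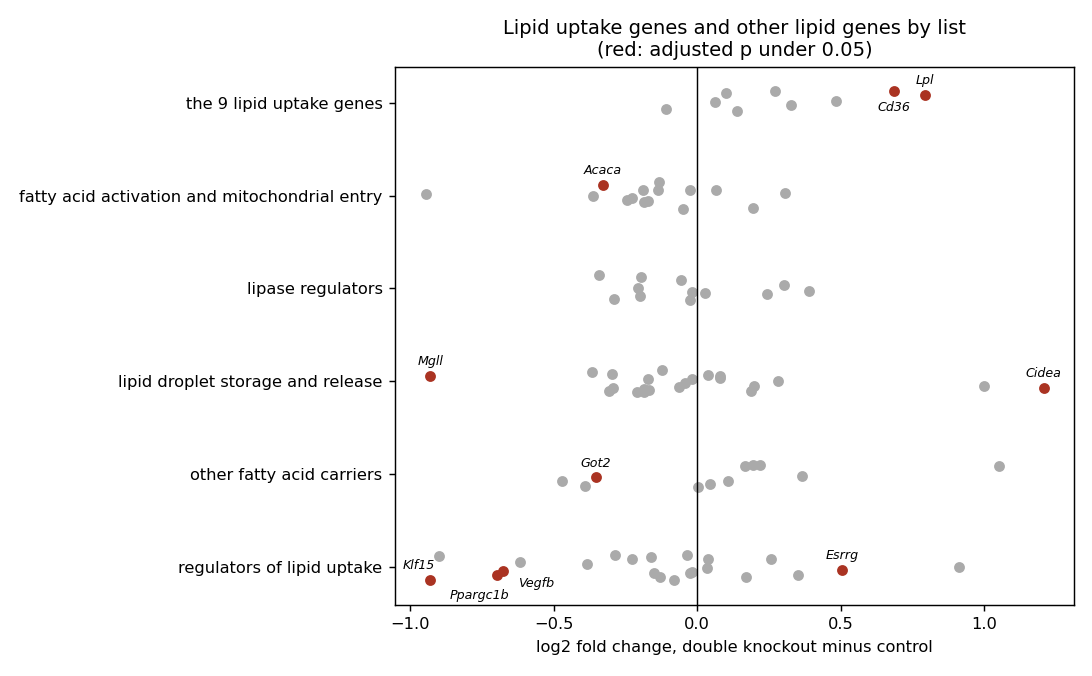
Log2 fold changes, double knockout minus control, of the 9 lipid uptake genes (top row) and of the tested genes in 5 of the 7 lists, 1 point per gene. Red points passed an adjusted p under 0.05 and are named: 2 of the 9, and 8 genes of the lists shown.

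Genes with a pattern like that of Cd36 or Lpl were sought among 11586 genes with a mean of at least 50. Likeness was the root mean square difference, over the 6 libraries, between the log2 deviations of 2 genes from their own means. Nearest to Cd36 were Nipal2 (0.035), Myzap (0.041), Tmem71 (0.052), Slc35f5 (0.059) and Lamp2 (0.071), where the median gene was at 0.38. Nearest to Lpl were Klhdc1 (0.058), Mal (0.083), Mb (0.084), Myzap (0.116) and Pln (0.118), where the median gene was at 0.445. Cd36 and Lpl were 0.152 apart and Fabp3 and Fabp5 0.111, the smallest difference among pairs of the 9. Myzap, a protein of the intercalated disc, was in both sets, at 539, 510 and 518 in controls and 779, 881 and 916 in knockouts. Mb, myoglobin, was at 1806, 1491 and 1823 in controls and 2469, 3180 and 3544 in knockouts. Control 2 was the lowest library for Mb and for Lpl alike, which the choice of Mb by likeness to Lpl makes likely.

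**Figure D5:**
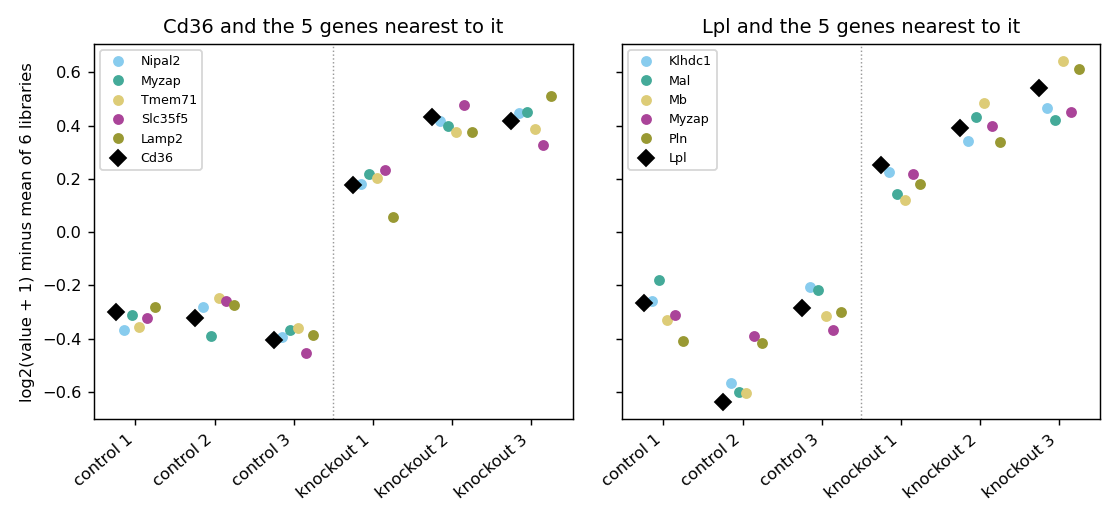
Deviation of log2(value + 1) from the mean of the 6 libraries for Cd36 (left) and Lpl (right), as black diamonds, and for the 5 genes nearest to each, as coloured points. The library is on the x axis, and the dotted line separates 3 control from 3 knockout libraries. All points of controls lie below 0 and all points of knockouts above it, which the choice of genes by likeness to Cd36 or Lpl makes likely.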

How the data were processed

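PolyA RNA of 6 heart libraries was sequenced as single-end reads of 75 bases from a stranded library, per the labels' protocols. Tools in the submitters' processing notes, listed without roles, are featureCounts 1.5.0, STAR 2.4.2a, Trimmomatic, DESeq and DESeq2, with the build mm10. Annotation, strand and multi-mapping settings were not given there. The values the authors deposited are treated as a score: whole numbers skipped at even spacing in 3 libraries are what read counts scaled per library and rounded would give, so no count model was used.

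Genes with a mean of at least 1 in a genotype (26747) entered limma 3.58.1 (R 4.3.3) as log2(value + 1), a scale on which changes of low genes are understated. The two-sided test used robust moderation and a variance trend. P-values were adjusted over all these genes by Benjamini-Hochberg, with 0.05 as threshold. Nothing states that libraries were separate animals, so p-values measure the spread between libraries. The fit was tested on simulated counts with the same dispersion for every gene and no GC trend. That test does not cover the GC trend or the effect of the robust option in these data.

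The 9 genes, lists and tests were chosen with earlier results of these data known. Named were the 9, the targeted genes, up to 4 called genes per list (or the most abundant), called markers and the 5 nearest genes to Cd36 and to Lpl, leaving out predicted genes and pseudogenes; 2 genes of this rule, and the 2 lists that hold them, are not reported singly here. Coordinates, exons and transcripts are from GENCODE M21 (GRCm38, the assembly of mm10), which held 99.3% of identifiers, and promoters from RefSeq GRCm38.p6. Copies were found with blastn 2.17.0. Alternatives were pseudocounts of 0.5 and 10, filters, rescaling, no robust option, removal of the GC and length trend (splines with 5 degrees of freedom), the replicate block and leaving out libraries.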

Additional observations from a re-analysis of the deposited data

How the results depend on the processing

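Cd36 and Lpl kept their direction under all 17 alternatives and their calls under 16 of them; the exception was leaving out both libraries numbered 3 (0.62 and 0.78, adjusted p = 0.141 for both), which left 0 of the 9 genes and 38 of all genes called. That fit has 2 libraries per genotype. Over these alternatives, 139 of 152 values of the 9 genes kept direction and side of the threshold. With no filter on low values 1918 of all genes passed, against 1299 as reported. Of the 9, 4 passed in that setting, with Vldlr (0.33, limma adjusted p = 0.0144) and Fabp3 (0.27, limma adjusted p = 0.0423) added. With the GC and length trend removed 1577 of all genes passed, Fabp3 among them (0.39, limma adjusted p = 0.00812), and Slc27a4 was at 0.001. With this and the replicate block 1486 of all genes passed, and Fabp3 and Slc27a4 were at 0.39 (limma adjusted p = 0.00671) and 0.001. A pseudocount of 10 put Gpihbp1 at -0.01, and leaving out both libraries numbered 3 put it at -0.29. Without the robust option 350 genes passed, Cd36 and Lpl among them (adjusted p = 0.0197 and 0.0354). The cause of these changes was not tested. Leaving out 1 library at a time gave 420 to 1253 genes called (481 without control 1, 420 without control 3 and 496 without knockout 3), with 2 of the 9 each time, and ranges of -0.29 to 0.71 for Gpihbp1, 0.127 to 0.374 for Fabp3, 0.065 to 0.82 for Fabp4, -0.001 to 0.20 for Slc27a1, -0.082 to 0.19 for Fabp5 and -0.036 to 1.14 for the log2 ratio of Lpl to Gpihbp1. For the pseudogene Gm6166 it gave -0.025 (without knockout 2) to 0.262.

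Deviations of libraries with the same number correlated at 0.05, 0.07 and 0.33 across 13805 genes, so the numbers were not taken to pair the libraries, and only those numbered 3 correlated best with each other. With the replicate block 1355 genes passed, and among the 9 again Cd36 and Lpl, at differences of 0.69 and 0.79. The calls of Got2 and Acaca were lost with the block (adjusted p = 0.0509 and 0.0737).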
